A study of Mus musculus with 8 samples.

Results

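RNA sequencing values were read for 9 genes tied to the conversion of regulatory T cells into Th17 cells, the helper T cells that secrete IL-17. They were the receptor genes Il17ra, Il6ra, Il6st, Il21r, Il1r1 and Il23r and the transcription factor genes Rora, Ahr and Hif1a, taken by name from the 23361 genes of the expression table, and all 9 were listed in it. The cells were iTreg, regulatory T cells induced in culture. Both groups came from naive CD44low CD62Lhigh CD4+ T cells of wild-type Foxp3-RFP mice, in which a red fluorescent protein reports Foxp3, and both were cultured for 3 days with anti-CD3/CD28 beads, IL-2 at 50 U/ml and TGF-β at 2 ng/ml. Another field of the labels gives day 5, and the study's methods place the sort on day 3 and give the IL-2 by mass, at a dose that was not set against the units of the labels. Viable CD4+ Foxp3-RFP+ cells were then divided on the surface protein neuropilin-1 into Nrp-1+ iTreg (4 libraries) and Nrp-1- iTreg (4 libraries), so by the labels the groups differed in that gate alone, and no inflammatory cytokine is listed for either. The mice were on the B6 background and, per the study's methods, 7 to 8 weeks old. The libraries are labelled as biological replicates 1 to 4 of each group, but nothing ties them to separate animals, so the p values below measure the spread between libraries.

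Th17 cells arise when naive T cells meet TGF-β together with IL-6. IL-6 binds its receptor chain (Il6ra), which recruits gp130 (Il6st), and gp130 activates the kinase JAK1 and the factor STAT3. STAT3 induces the nuclear receptor RORα (Rora) and the receptors for IL-21 and IL-23, while the aryl hydrocarbon receptor (Ahr) and the oxygen-regulated factor HIF-1α (Hif1a) promote the programme further. The same TGF-β signal without IL-6 gives Foxp3+ iTreg, and the receptors are one route by which an inflamed site can act on such cells.

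The start of each gene is shown first for the 3 receptor chains whose RNA differed together and had an entry, Il6ra, Il6st and Il21r, and for Il23r, which was almost unread. The letters are RefSeq sequence of GRCm38.p6, from 250 bases before to 50 bases after the transcription start, 5′ to 3′ along the gene, with every CG in capitals.
Il6ra (chr3:89913147-89913446, minus strand): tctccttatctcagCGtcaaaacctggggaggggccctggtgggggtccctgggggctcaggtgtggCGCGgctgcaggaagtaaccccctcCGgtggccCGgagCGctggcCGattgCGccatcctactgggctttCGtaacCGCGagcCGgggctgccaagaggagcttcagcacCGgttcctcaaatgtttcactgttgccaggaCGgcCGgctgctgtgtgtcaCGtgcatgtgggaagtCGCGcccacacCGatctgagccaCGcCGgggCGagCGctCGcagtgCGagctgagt
Il6st (chr13:112463820-112464119, plus strand): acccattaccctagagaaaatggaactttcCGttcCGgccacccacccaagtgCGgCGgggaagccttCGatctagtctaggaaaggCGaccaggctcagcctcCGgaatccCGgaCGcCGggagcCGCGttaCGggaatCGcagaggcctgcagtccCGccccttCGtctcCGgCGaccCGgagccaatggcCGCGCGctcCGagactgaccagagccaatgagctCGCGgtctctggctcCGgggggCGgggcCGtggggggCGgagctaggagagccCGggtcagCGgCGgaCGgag
Il21r (chr7:125603179-125603478, plus strand): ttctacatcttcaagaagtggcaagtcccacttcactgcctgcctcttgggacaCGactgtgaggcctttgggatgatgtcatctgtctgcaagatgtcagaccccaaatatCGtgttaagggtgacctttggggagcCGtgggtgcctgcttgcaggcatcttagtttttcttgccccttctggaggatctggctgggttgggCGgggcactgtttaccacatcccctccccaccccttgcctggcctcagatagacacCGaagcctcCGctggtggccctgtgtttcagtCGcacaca
Il23r (chr6:67491806-67492105, minus strand): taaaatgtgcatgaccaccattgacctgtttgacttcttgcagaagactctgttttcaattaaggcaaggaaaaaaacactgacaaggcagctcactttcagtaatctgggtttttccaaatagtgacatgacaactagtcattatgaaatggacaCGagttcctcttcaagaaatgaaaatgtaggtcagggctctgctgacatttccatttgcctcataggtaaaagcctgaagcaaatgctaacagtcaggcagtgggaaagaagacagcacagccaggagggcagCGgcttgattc
The Il6st promoter held 33 CG, more than 91.4% of the 32851 mouse promoters of the same length, and the Il6ra promoter held 25, more than 81.6% of them. Il21r held 7, which is the median of all promoters, and Il23r held 2. Among the other members with an entry, Rora held 28 and Hif1a 25, and the 2 entries of Il1r1 held 14 and 5, so 7 of the 9 members had 8 entries in all, and Il17ra and Ahr had none. The 4 motifs below were searched on both strands. The core element of the ROR receptors, AGGTCA, occurred 2 times in Il23r, 1 time in Il21r and 1 time in Hif1a, and 16.3% of all promoters hold it. The HIF core ACGTG occurred 3 times in Hif1a, 2 times in Il6ra and 1 time in Rora. It also occurred 1 time in the Il1r1 entry with 5 CG, and 19.6% of all promoters hold it. The palindrome CACGTG holds the HIF core once on each strand, and so accounts for both matches in Il6ra and 2 of the 3 in Hif1a. The AHR core GCGTG, which differs from the HIF core in its first letter, was present in Il6ra, Rora and both entries of Il1r1 (32.4% of all promoters). The STAT motif TTCNNNGAA was in no entry (8.30% of all promoters). A match of such short letters is a description of the sequence and not a binding site.

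Levels are FPKM, the fragments of a gene scaled to the length of its transcript and to the mapped fragments of the library. A gene was tested when its mean over the 8 libraries was at least 1 FPKM, which 10467 genes reached, and 7 of the 9 members did. The test was limma on log2(FPKM + 1), adjusted over all genes tested, and a gene was called at an adjusted p under 0.05. In this comparison 40.9% of all genes tested were called, 20.9% higher and 20.0% lower in Nrp-1+ iTreg, so a call alone is common. Counts of called genes in the lists below are to be read against these shares. With other scaling the split moved: 51.1% of the called genes were higher as deposited and 73.5% after short RNA genes were left out and the rest rescaled. From the value of 1 fragment in low genes, the libraries held about 15700000 to 24100000 fragments, the shallowest and the deepest both being Nrp-1- iTreg. Short RNA genes took 1.81% to 44.0% of all FPKM in a library. Nrp1 itself was at 21.5 ± 0.709 FPKM against 4.95 ± 0.262 FPKM (SD, n = 4 each) in Nrp-1+ and Nrp-1- iTreg, with no overlap, on the side that the gate fixes.

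The 4 receptor chains, Il17ra, Il6ra, Il6st and Il21r, were lower in Nrp-1+ iTreg, with changes of the mean from -4.63% to -7.73%. Every Nrp-1+ iTreg library lay under every Nrp-1- iTreg library for each of them. None of the 9 genes was called higher. Rora, Ahr and Hif1a were not called, and Il1r1 and Il23r were too low to read. In bulk RNA, fewer cells that express a gene and less RNA per cell cannot be told apart, and protein on the cell surface was not measured here.

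Il17ra encodes the chain shared by the receptors for IL-17A and IL-17F (chr6:120463247-120487559, plus strand, a protein-coding gene, GRCm38). In the Nrp-1+ iTreg libraries, replicates 1 to 4, it was at 98.8, 100.5, 98.7 and 104.2 FPKM, and in the Nrp-1- iTreg libraries at 110.5, 107.3, 110.5 and 107.8 FPKM. The highest Nrp-1+ iTreg library stayed below the lowest Nrp-1- iTreg library. The means were 100.6 ± 2.59 and 109.0 ± 1.73 FPKM (SD, n = 4 each), a difference of -8.42 FPKM. On log2(FPKM + 1) the difference was -0.12 (standard error 0.024, adjusted p = 0.00557), and its 95% interval ran from -11.1% to -4.11%. The exact two-sided permutation test gave p = 0.0286, the smallest that 4 against 4 libraries allow.

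Il6ra encodes the chain that binds IL-6 (chr3:89864059-89913196, minus strand). It was at 86.8, 91.0, 90.2 and 92.2 FPKM in Nrp-1+ iTreg and at 99.2, 97.2, 94.5 and 98.7 FPKM in Nrp-1- iTreg. Again the groups did not overlap, with a gap between 92.2 and 94.5 FPKM. The means were 90.05 ± 2.29 and 97.4 ± 2.12 FPKM (SD, n = 4 each), or -7.56%, and the log2 difference was -0.11 (standard error 0.026, adjusted p = 0.00879).

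Il6st encodes gp130, the signalling chain that IL-6 shares with LIF, oncostatin M, IL-11 and IL-27 (chr13:112464070-112510086, plus strand). Its values were 35.4, 33.8, 34.1 and 35.5 FPKM in Nrp-1+ iTreg and 38.5, 35.9, 37.3 and 36.6 FPKM in Nrp-1- iTreg. The groups touched closely, since the highest Nrp-1+ iTreg library was at 35.50 FPKM and the lowest Nrp-1- iTreg library at 35.85 FPKM. The means were 34.7 ± 0.889 and 37.1 ± 1.12 FPKM (SD, n = 4 each), or -6.42%, with a log2 difference of -0.093 (standard error 0.029, adjusted p = 0.0321).

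Il21r encodes the chain that binds IL-21 (chr7:125603429-125633570, plus strand). It was at 87.5, 86.8, 85.9 and 87.7 FPKM in Nrp-1+ iTreg and at 91.8, 87.9, 91.4 and 93.8 FPKM in Nrp-1- iTreg. In the latter group replicate 2 lay 0.193 FPKM above the highest Nrp-1+ iTreg library, and the other 3 lay clear of that group. The means were 87.0 ± 0.836 and 91.2 ± 2.45 FPKM (SD, n = 4 each), or -4.63%, with a log2 difference of -0.067 (standard error 0.023, adjusted p = 0.0475).

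**Figure D1:**
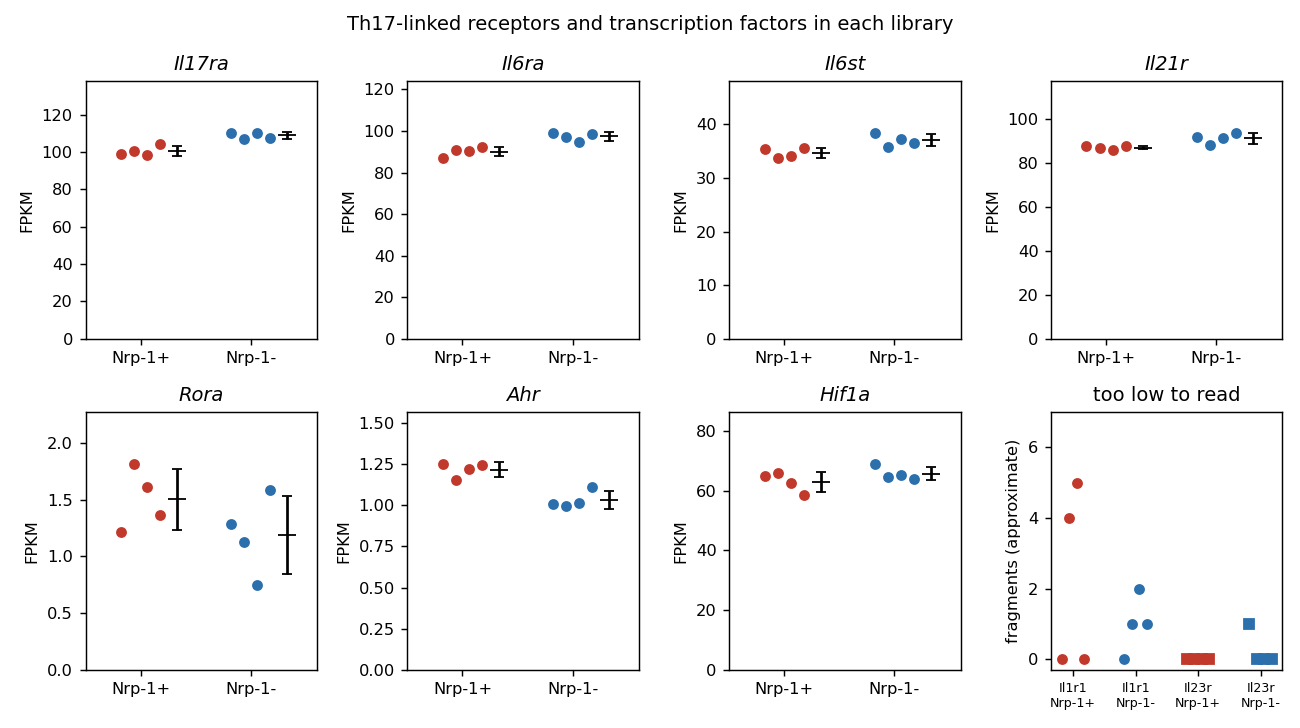
FPKM of the 7 members that could be read, by library, with the mean and SD of each group beside its points and the axes starting at 0; the last panel gives the approximate fragment numbers of Il1r1 and Il23r. Il17ra, Il6ra, Il6st and Il21r do not overlap between the groups but differ in mean by -4.63% to -7.73%, Ahr does not overlap at about 1 FPKM, Rora and Hif1a overlap, and Il1r1 and Il23r do not go above 5 fragments.

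The 4 receptor differences were small among the changes in these cells. Of the 4282 genes called, 3856 changed more than Il17ra, 3898 more than Il6ra, 4146 more than Il6st and 4271 more than Il21r, and the median of all genes tested was -0.016 on the log2 scale. The share of members called, 4 of 7, all lower, stands against 20.0% of all genes called lower, and the 5 of 7 members whose groups did not overlap stand against 39.5% of all genes. The calls depended on which scale of the libraries was used. With median-of-ratios size factors or quantile normalization, Il17ra, Il6ra and Il6st kept their calls (adjusted p = 0.00716 to 0.0410 by limma). Il21r lost its call under both (0.0680 and 0.216). With short RNA genes left out and FPKM rescaled, the differences were -0.053, -0.050, -0.032 and -0.0053 for Il17ra, Il6ra, Il6st and Il21r, and 0 of the 4 were called (adjusted p = 0.277 to 0.918 by limma). The call of Il6st was also lost without replicate 2 or 3 of Nrp-1+ iTreg (adjusted p = 0.0792 and 0.0801) or replicate 1, 3 or 4 of Nrp-1- iTreg (0.0684, 0.0719 and 0.0516). The call of Il21r was kept only without replicate 2 of Nrp-1- iTreg (adjusted p = 0.0148) and was lost without any other library (0.0602 to 0.109). Leaving out single libraries ended no call of Il17ra or Il6ra. Their calls were lost when correction for GC and length was combined with the replicate block (adjusted p = 0.123 for each), as were those of Il6st (0.202) and Il21r (0.161), and the block alone ended the call of Il21r (0.0844).

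**Figure D2:**
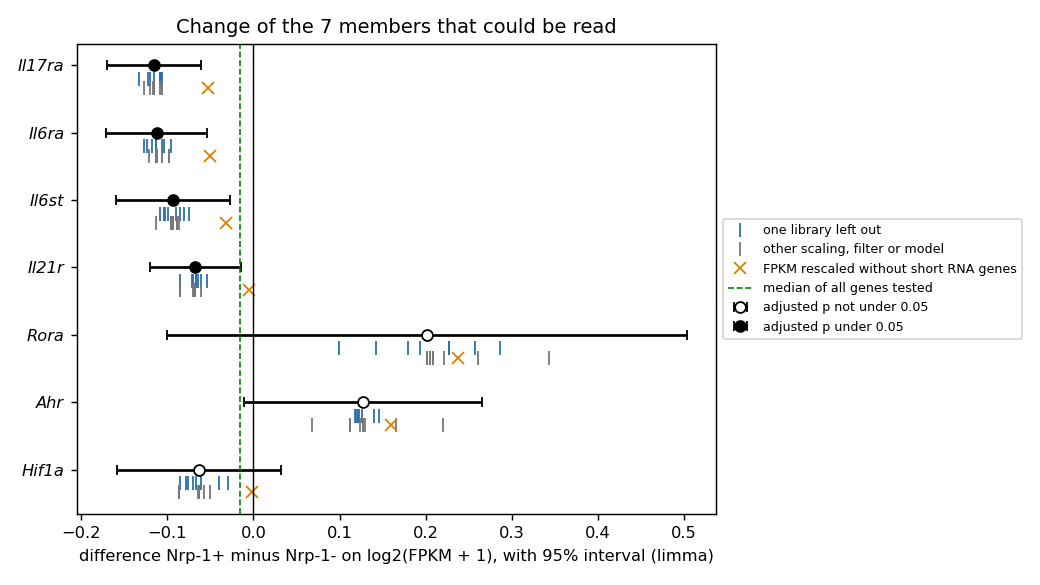
Difference of Nrp-1+ iTreg minus Nrp-1- iTreg on log2(FPKM + 1) with its 95% interval by limma for the 7 members read (filled: adjusted p under 0.05), with the values when single libraries are left out and under other settings below each. The 4 receptors lie between -0.12 and -0.067 and move to between -0.053 and -0.0053 when FPKM are rescaled without short RNA genes, while the intervals of Rora, Ahr and Hif1a include 0.

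Il1r1 encodes the signalling receptor for IL-1 (chr1:40225080-40317257, plus strand), and Il23r the specific chain of the IL-23 receptor (chr6:67422932-67491855, minus strand). Il1r1 was listed at 0, 0.0428, 0.0442 and 0 FPKM in Nrp-1+ iTreg and at 0, 0.0102, 0.0265 and 0.0112 FPKM in Nrp-1- iTreg. These are about 0, 4, 5 and 0 fragments and 0, 1, 2 and 1 fragments, 9 against 4 in all. The gene was above 0 in 5 of 8 libraries, on both sides of the gate, and gives no readable difference (exact two-sided permutation test, p = 0.486). Il23r was listed above 0 in a single library, replicate 1 of Nrp-1- iTreg, at 0.0173 FPKM, or 1 fragment. A count of 0 fragments allows up to 3, which for Il23r is 0.0512 to 0.0768 FPKM over the 7 libraries listed at 0. Fragment numbers rest on annotated transcript lengths, are approximate and cover counting error only. Both genes were therefore not detectable as different at this depth.

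Almost no RNA of Th17 cytokines was read. Of 12 genes for Th17 cytokines and ligands, 0 reached the filter, the highest mean was 0.157 FPKM, and 4 (Il17a, Il22, Il6 and Il1b) were listed at 0 in all 8 libraries. Il21, whose product binds the IL-21 receptor, was also under the filter. Of the Th17 marker list, 0 of 6 genes reached the filter.

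The second chain of each receptor differed widely in level. The chains that follow were picked as partners of the members after their values were known. Il2rg, the common γ chain that pairs with Il21r, was at 393.6 ± 5.94 FPKM against 395.6 ± 4.64 FPKM (SD, n = 4 each; adjusted p = 0.793). Il12rb1, the partner of Il23r, was at 4.77 ± 0.221 and 4.58 ± 0.406 FPKM (adjusted p = 0.519), and Il1rap, the partner of Il1r1, at 4.06 ± 0.160 and 4.40 ± 0.433 FPKM (adjusted p = 0.276). So each partner could be read where the specific chain could not. Il17rc, with which Il17ra pairs to bind IL-17A and IL-17F, was above 0 in 2 of 8 libraries at no more than 0.0245 FPKM. Il17rb, with which Il17ra pairs to bind IL-25, was above 0 in 8 of 8 libraries at 0.869 ± 0.168 against 0.429 ± 0.0782 FPKM, and Il17rd, another relative, at 0.253 ± 0.0206 against 0.140 ± 0.0141 FPKM (SD, n = 4 each). Neither overlapped between the groups, and both were under the filter and not tested. The decoy receptor Il1r2 was above 0 in 8 of 8 libraries at no more than 0.212 FPKM. Il17ra was thus listed with almost no Il17rc, while both chains of the IL-6 receptor were among the readable genes.

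**Figure D3:**
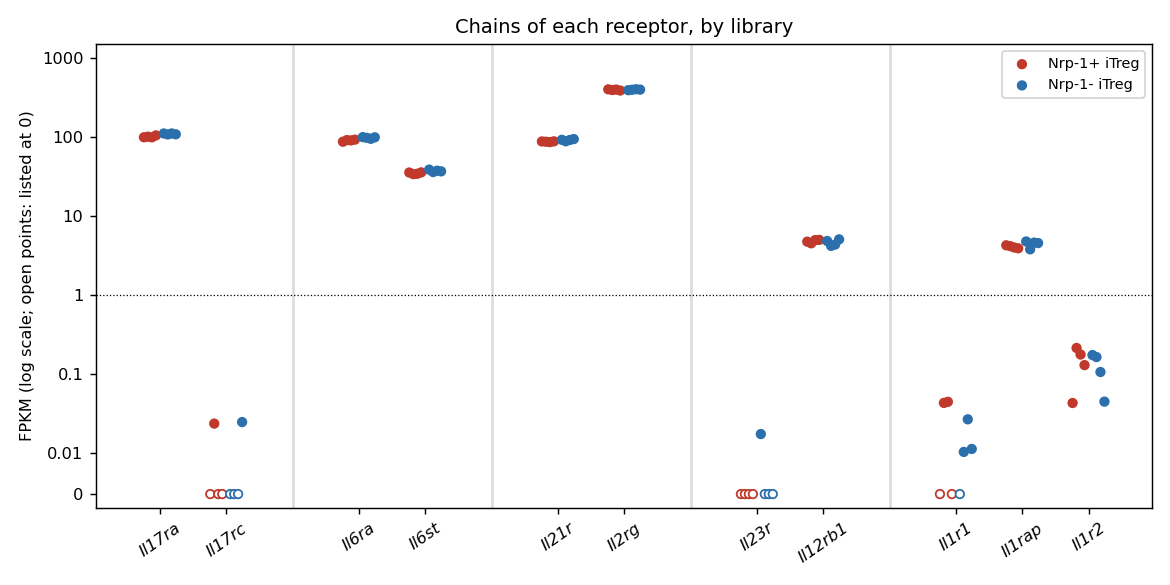
FPKM on a log axis of the chains of the IL-17, IL-6, IL-21, IL-23 and IL-1 receptors in each library, with open points at the bottom for libraries listed at 0 and a dotted line at the filter of 1 FPKM. Il17ra, Il6ra, Il6st, Il21r and Il2rg lie between 33.8 and 401.2 FPKM, Il12rb1 and Il1rap between 3.77 and 5.04 FPKM, and Il17rc, Il23r, Il1r1 and Il1r2 below the line in both groups.

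Of the whole list of 11 partner chains and relatives, 5 were tested, 2 were higher and 0 lower in Nrp-1+ iTreg, with a median of 0.051 against -0.016 over all genes. Both that rose belong to the IL-18 receptor, a relative of the IL-1 receptor. Il18r1, its binding chain, was at 29.5, 29.6, 28.3 and 30.7 FPKM in Nrp-1+ iTreg and at 15.5, 15.5, 16.0 and 14.7 FPKM in Nrp-1- iTreg. The groups lay far apart, with a log2 difference of 0.90 (standard error 0.033, adjusted p = 4.41e-07). Il18rap, its signalling partner, was at 2.28 ± 0.121 and 1.11 ± 0.193 FPKM (SD, n = 4 each; log2 difference 0.64, adjusted p = 0.000355). Among 8 other genes whose products use gp130, 3 were tested and only Lif, the gene of a cytokine that signals through gp130, was called, at 3.55 ± 0.324 against 2.36 ± 0.413 FPKM (log2 difference 0.44, adjusted p = 0.00652). Osm, the gene of oncostatin M, another such ligand, was read at a higher level, at 48.0 ± 3.67 against 44.7 ± 1.74 FPKM (SD, n = 4 each), with overlapping groups (log2 difference 0.099, adjusted p = 0.187). After rescaling without short RNA genes 2 genes of this list were higher. Among 4 genes of the shedding of IL-6 receptor from the membrane, 3 were tested and Adam10, a metalloprotease, was called higher, at 59.3 ± 2.04 against 55.5 ± 0.964 FPKM (adjusted p = 0.0275). This call was lost without replicate 1, 2 or 3 of Nrp-1+ iTreg or replicate 2 or 4 of Nrp-1- iTreg (adjusted p = 0.0559 to 0.0701). Quantile normalization (0.0747) and correction for GC and length (0.198, or 0.302 once the replicate block was added) also ended it.

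Downstream of gp130 and the IL-21 receptor, 6 of 12 genes of JAK, STAT and SOCS signalling were lower in Nrp-1+ iTreg and 0 higher, with a median of -0.091. Over all genes tested, 20.0% were called lower and 20.9% higher. Stat4, which carries IL-12 and IL-23 signals, was at 48.6 ± 2.76 against 59.5 ± 0.894 FPKM (log2 difference -0.29, adjusted p = 0.000674). Jak1, the kinase bound to gp130, was at 177.6 ± 3.87 against 202.5 ± 3.26 FPKM (-0.19, adjusted p = 0.000329), a call lost with quantile normalization (-0.16, adjusted p = 0.0623). Their log2 differences were larger in size than those of the 4 receptors, which was not tested. After rescaling without short RNA genes the counts were 3 lower and 2 higher. Of 14 adaptors of the IL-17 and IL-1 receptors, 5 were lower and 1 higher (median -0.059), where 40.9% of all genes tested were called. After that rescaling 3 adaptors were lower and 1 higher. The lower genes were led by Sigirr, a brake on IL-1 receptor signalling (44.7 against 51.5 FPKM, -0.20), Nfkbiz, an NF-κB cofactor induced by IL-17 (13.3 against 15.2 FPKM, -0.19), and Irak4, the kinase of the MYD88 complex (11.9 against 13.6 FPKM, -0.18). The call of Irak4 was lost without replicate 2 or 3 of Nrp-1- iTreg (adjusted p = 0.0535 and 0.0521), with the replicate block (0.0618) and with rescaling without short RNA genes (0.0666). Map3k7, the kinase TAK1, was higher (23.0 against 20.5 FPKM, 0.16).

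Rora encodes RORα, a nuclear receptor that promotes Il17 transcription (chr9:68653786-69388246, plus strand). It was at 1.22, 1.82, 1.61 and 1.36 FPKM in Nrp-1+ iTreg and at 1.29, 1.13, 0.751 and 1.58 FPKM in Nrp-1- iTreg. The groups overlapped, and replicate 3 of Nrp-1- iTreg was the lowest. The means were 1.50 ± 0.266 and 1.19 ± 0.346 FPKM (SD, n = 4 each), and the log2 difference of 0.20 had a 95% interval from -0.10 to 0.50 (adjusted p = 0.254, exact two-sided permutation test p = 0.200). Among the tested genes Rora stood at the 2.95 percentile of level. It rested on about 30.6 to 98.3 fragments a library if its shortest annotated transcript was counted, and up to 413 if its longest was. Its spread between libraries, 17.7% and 29.2% of the group mean, was larger than the 11.9% that counting alone gives at the lower of these numbers. In percent of FPKM + 1 the interval runs from -6.74% to 41.8%.

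RORα and the REV-ERB receptors bind the same sites in genes of the circadian clock. Of 13 such genes, 9 were tested, 1 was lower and 0 higher, with a median of -0.082, and after rescaling without short RNA genes 1 was lower and 1 higher. The gene called was Nr1d2, which encodes REV-ERBβ. It was at 7.53, 7.33, 7.21 and 7.62 FPKM in Nrp-1+ iTreg and at 9.73, 10.2, 9.17 and 9.79 FPKM in Nrp-1- iTreg, a log2 difference of -0.35 (standard error 0.036, adjusted p = 0.000139). Among 14 other Th17 transcription factors, 13 were tested, 4 were higher and 4 lower, where 40.9% of all genes tested were called. The median of the factors was -0.059. Etv6 (6.61 against 5.30 FPKM, 0.27), Irf4 (28.8 against 25.6 FPKM, 0.17) and Runx1 (15.6 against 13.9 FPKM, 0.16) led the higher genes. Ikzf3, which encodes Aiolos (55.5 against 67.4 FPKM, -0.28), Ets1 (322.3 against 351.5 FPKM, -0.12) and Batf (50.8 against 55.1 FPKM, -0.12) led the lower genes. Runx1 lost its call without replicate 2, 3 or 4 of Nrp-1+ iTreg or replicate 1, 3 or 4 of Nrp-1- iTreg (adjusted p = 0.0656 to 0.0874), and Batf without replicate 1, 2 or 3 of Nrp-1+ iTreg or replicate 1, 2 or 4 of Nrp-1- iTreg (0.0601 to 0.0907). Correction for GC and length ended the calls of Irf4 (adjusted p = 0.0808), Runx1 (0.106) and Batf (0.141), and adding the replicate block to it put Irf4 at 0.196 and Ets1 at 0.144. Ets1 also lost its call with quantile normalization (0.414) and with rescaling without short RNA genes (0.200), as did Batf (0.0545 and 0.315, the latter at a log2 difference of -0.055). Without the filter Runx1 (0.0552) and Batf (0.0548) were not called, nor was Runx1 with the replicate block alone (0.0604). After that rescaling, 4 of the factors were higher and 1 lower.

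Ahr encodes the aryl hydrocarbon receptor, a factor activated by small aromatic ligands (chr12:35497974-35535038, minus strand). It was at 1.25, 1.16, 1.22 and 1.24 FPKM in Nrp-1+ iTreg and at 1.01, 0.994, 1.01 and 1.11 FPKM in Nrp-1- iTreg. All 4 Nrp-1+ iTreg libraries were above all 4 Nrp-1- iTreg libraries, the reverse of the receptors (exact two-sided permutation test, p = 0.0286). The means were 1.22 ± 0.0437 and 1.03 ± 0.0547 FPKM (SD, n = 4 each), or 18.1% higher. The log2 difference of 0.13 had a 95% interval from -0.011 to 0.27, and limma did not call it (adjusted p = 0.128). It was called without the intensity trend (adjusted p = 0.00912) and without the filter (0.0295), and quantile normalization gave 0.068 (0.590). Each value rested on about 88.2 to 159 fragments, where counting alone gives an error of 8.93%, more than the 3.59% and 5.31% by which the libraries of the groups varied.

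Of 12 partners and targets of the receptor, 7 were tested, 2 were higher and 1 lower, with a median of 0.054. After rescaling without short RNA genes 4 were higher and 1 lower, and with quantile normalization 1 was higher and 1 lower. Hsp90aa1, a heat shock protein that holds the receptor in the cytoplasm, was at 178.8, 182.5, 173.8 and 163.1 FPKM in Nrp-1+ iTreg and at 137.6, 139.8, 137.2 and 136.4 FPKM in Nrp-1- iTreg (log2 difference 0.34, standard error 0.034, adjusted p = 0.000129). Tiparp, a target gene that represses the receptor, was at 7.26, 7.96, 7.01 and 7.46 FPKM in Nrp-1+ iTreg and at 9.97, 9.37, 8.93 and 8.66 FPKM in Nrp-1- iTreg (-0.28, standard error 0.051, adjusted p = 0.00296). Correction for GC and length together with the replicate block ended the call of Tiparp (-0.31, adjusted p = 0.0522). Hsp90aa1 and Tiparp did not overlap between the groups and moved in opposite directions. Cyp1a1, the target best known for this receptor, had a mean just under the filter and was not tested. Named after its values were seen, it was above 0 in 8 of 8 libraries, at 1.16 ± 0.0291 against 0.775 ± 0.120 FPKM (SD, n = 4 each), and its groups did not overlap.

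Hif1a encodes HIF-1α, which is regulated mainly by degradation of its protein (chr12:73901375-73947530, plus strand). It was at 64.9, 65.9, 62.5 and 58.5 FPKM in Nrp-1+ iTreg and at 69.1, 64.8, 65.3 and 64.0 FPKM in Nrp-1- iTreg. The groups overlapped between 64.0 and 65.9 FPKM, and replicate 4 of Nrp-1+ iTreg was the lowest. The means were 63.0 ± 3.28 and 65.8 ± 2.28 FPKM (SD, n = 4 each), and the log2 difference of -0.063 had a 95% interval from -0.16 to 0.032 (adjusted p = 0.257, exact two-sided permutation test p = 0.257). In percent the interval runs from -10.4% to 2.24%, so a change of the size seen in Il17ra lies inside it. Of 13 genes of oxygen sensing and HIF degradation, 12 were tested and 2 were lower, both prolyl hydroxylases that mark HIF-1α for degradation: Egln3 (41.7 against 53.1 FPKM, -0.34) and Egln1 (68.1 against 77.2 FPKM, -0.18). After rescaling without short RNA genes 2 were lower and 1 higher.

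Most of the HIF-1α target genes listed here were lower in Nrp-1+ iTreg, while Hif1a itself was not called. The list was chosen with earlier results of these data known. Of 22 target genes, 21 were tested, 19 were lower in Nrp-1+ iTreg and 0 higher, and 19 did not overlap between the groups. Over all genes tested, 20.0% were called lower and 39.5% did not overlap. The median of the targets was -0.22, with a range from -0.50 to 0.074, against -0.016 over all genes tested. Slc2a3, a glucose transporter, was at 50.1, 50.0, 53.5 and 53.3 FPKM in Nrp-1+ iTreg and at 76.0, 71.5, 75.8 and 71.0 FPKM in Nrp-1- iTreg (-0.50, standard error 0.035, adjusted p = 1.54e-05). Ankrd37, a small ankyrin repeat protein, was at 54.1, 52.7, 56.4 and 50.5 FPKM and at 65.6, 69.6, 76.0 and 80.8 FPKM (-0.44, standard error 0.065, adjusted p = 0.00103). Neither gene overlapped between the groups, and for Ankrd37 the gap lay between 56.4 and 65.6 FPKM. Bnip3, a mitochondrial protein of autophagy and cell death, was at 57.9 ± 3.06 against 75.8 ± 1.60 FPKM (SD, n = 4 each; -0.38, adjusted p = 0.000109). Egln3, counted above among the hydroxylases, is also a member of the target list. The 2 genes tested but not called, named after their values were seen, were P4ha2 and Ddit4, and Car9 was under the filter. Over all settings run, 13 to 19 of the targets were lower and at most 1 higher. The 13 came with the GC and length correction together with the replicate number, quantile normalization gave 15, and rescaling without short RNA genes gave 16 lower and 1 higher.

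**Figure D4:**
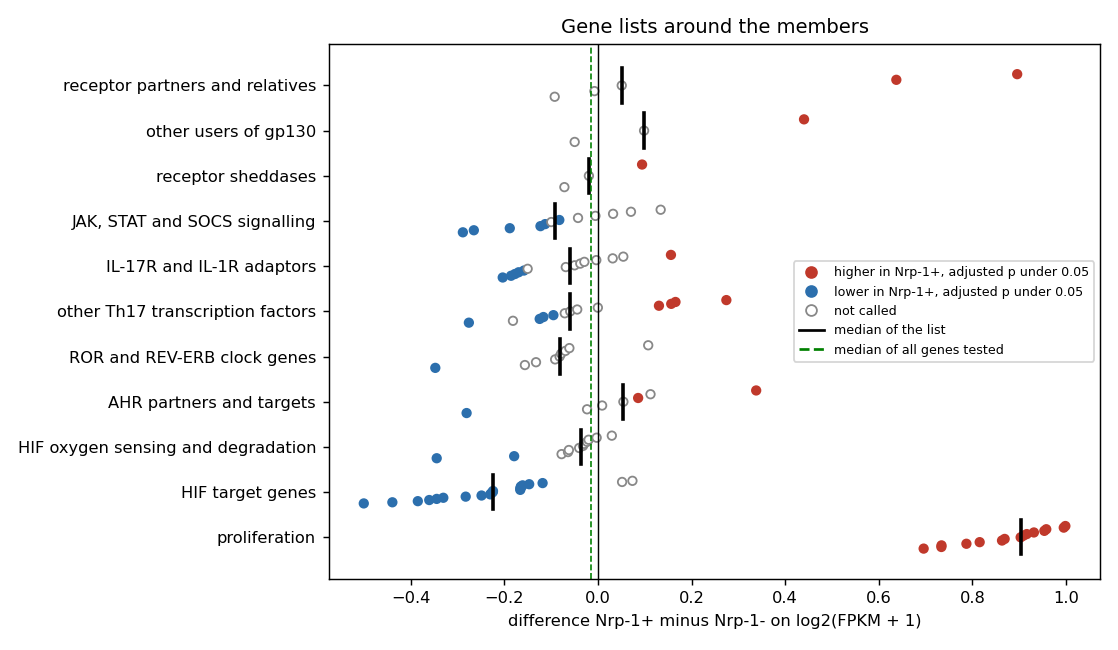
Difference of Nrp-1+ iTreg minus Nrp-1- iTreg on log2(FPKM + 1) for each tested gene of the lists around the members, filled where called (red higher, blue lower), with the median of each list as a black bar and the median of all genes as a dashed line. HIF target genes lie mostly to the left (19 of 21 lower, median -0.22), the JAK, STAT and SOCS genes lean left (6 of 12 lower), and the 15 proliferation genes lie at the right (median 0.90). Over all genes tested, 20.0% were called lower and 20.9% higher.

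By level per kilobase the members fell into 3 tiers. Il17ra was above Il6ra in 8 of 8 libraries (ratio 1.09 to 1.17), while Il6ra was above Il21r in 7 of 8 (0.992 to 1.11), so these neighbours were not apart in every library. Il21r was above Hif1a and Hif1a above Il6st in 8 of 8. Rora, at the next tier, was 18.6 to 49.7 times lower than Il6st, and it was above Ahr in 6 of 8 libraries (ratio 0.742 to 1.57), so the order of this pair was not fixed. Il1r1 and Il23r came last. Among the tested genes, Il17ra stood at the 91.4 percentile of FPKM, Il6ra at 90.3, Il21r at 89.8, Hif1a at 85.7, Il6st at 74.3 and Ahr at 1.15.

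Ratios within a library do not depend on the scale of that library. The ratio of Il6ra to Il6st, the chains of the IL-6 receptor, was 2.60 ± 0.104 in Nrp-1+ iTreg and 2.63 ± 0.0877 in Nrp-1- iTreg (SD, n = 4 each; exact two-sided permutation test, p = 0.629). Il17ra to Il6ra was 1.12 ± 0.0211 and 1.12 ± 0.0344 (exact p = 0.943). For both ratios the libraries of the groups overlapped. Il2rg to Il21r was 4.52 ± 0.0941 and 4.34 ± 0.125 (exact p = 0.0571). Foxp3 to Il17ra was 1.15 ± 0.0142 and 0.998 ± 0.0211, with no overlap between the groups (exact p = 0.0286). Foxp3 was higher and Il17ra lower in every Nrp-1+ iTreg library, so this ratio was bound to separate the groups. It adds no support beyond the values of each gene. Of 7 such ratios computed, this was the only one whose groups did not overlap, and no ratio can pass an adjustment over 7 at this number of libraries. Foxp3, the factor that defines regulatory T cells, was at 115.8 ± 3.72 against 108.8 ± 1.20 FPKM (adjusted p = 0.0245), a call lost without replicate 2 of Nrp-1+ iTreg or replicate 2 or 3 of Nrp-1- iTreg (0.0525 to 0.0623) and with quantile normalization (0.0992). The GC and length correction also ended the Foxp3 call (log2 difference 0.071, adjusted p = 0.243, or 0.324 once the replicate block was added).

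Over the 8 libraries the called receptors followed each other, with Pearson r of log2(FPKM + 1) from 0.710 (Il6ra with Il6st) to 0.880 (Il17ra with Il6st). Both groups and the same libraries enter these values, and within the groups r was -0.016 for Il6ra with Il6st and 0.60 for Il17ra with Il6st. The tested genes whose pattern was most like Il17ra were Tmem63a (r = 0.992), Zkscan6 (0.991) and Polr1b (0.988). For Il6ra they were Fam160b1 (0.980), Zgpat (0.979) and Dusp7 (0.978), for Il6st Zfp12 (0.981), Vamp1 (0.981) and Itpkb (0.978), and for Il21r Zfp646, 1500011K16Rik (both 0.973) and 1300002E11Rik (0.965). No gene was shared between these receptors. All 12 had a lower mean in Nrp-1+ iTreg, which follows from picking genes by r with members that separate the groups. Ahr was followed most closely by Taf6 (0.986), Ccdc14 (0.982) and Manf (0.977), all with a higher mean in Nrp-1+ iTreg for the same reason. The nearest to Rora were 4930506C21Rik (0.950), Tmem57 (0.923) and Nipa2 (0.911), and the nearest to Hif1a were Erbb2ip (0.970), Copb1 (0.966) and Klhdc1 (0.963). These r are the highest over the 10196 tested genes that are not short RNA genes, and are descriptions over 8 libraries.

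The libraries were T cell libraries by their markers. All 8 markers of T and Treg cells were tested, 3 higher and 2 lower in Nrp-1+ iTreg, and their summed level was 1874 to 1924 FPKM in Nrp-1+ iTreg and 1860 to 1942 FPKM in Nrp-1- iTreg. Of 5 myeloid markers 1 was tested, Itgam, higher at 6.70 against 5.56 FPKM, while the others had a mean of at most 0.0947 FPKM, and the list summed to 6.46 to 7.22 and 5.41 to 6.23 FPKM. Of 2 CD8 markers 1 was tested, Cd8b1, lower at 7.86 against 10.0 FPKM (a call lost on correction for GC and length, adjusted p = 0.0761, or 0.127 once the replicate block was added), with Cd8a at a mean of 0.0522 FPKM, and the list summed to 7.10 to 8.78 and 9.33 to 11.3 FPKM. Among 4 B cell markers 1 was tested and not called, 1 was listed at 0 in all libraries, and the list summed to 5.21 to 5.91 and 4.01 to 5.80 FPKM. The 3 NK cell markers were under the filter (sums 0.751 to 1.02 and 0.464 to 0.765 FPKM). Of 4 Th1 markers 3 were tested and 0 called, with sums of 14.7 to 16.1 and 14.1 to 16.2 FPKM. The 6 Th17 markers summed to 0.742 to 1.10 and 0.447 to 0.689 FPKM, higher in Nrp-1+ iTreg without overlap, the reverse of the called receptors. The largest part was Ccr6, at 0.727 ± 0.0756 against 0.328 ± 0.0953 FPKM (SD, n = 4 each). It was named after its values were seen, and it was under the filter and not tested. No other gene of the Th17 list separated the groups. The 15 proliferation genes were all higher in Nrp-1+ iTreg, with a median of 0.90 and sums of 2068 to 2124 against 1150 to 1168 FPKM. The part of proliferation, and of the markers that moved, in the receptor and HIF target differences was not tested.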

How the data were processed

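RNA was sequenced from 4 libraries of Nrp-1+ iTreg and 4 of Nrp-1- iTreg, grouped by the sample labels. The authors ran the reads through the CLC Genomics Workbench and used Cufflinks for FPKM, of which the deposited table holds 1 for each gene symbol in each library. The submitters' processing notes name GRCm38 and mm10, while the annotation is not given in the sources used here. The library kit differs between the study's methods, which name polyA selection and strand, and the labels. FPKM are not counts, and count models were left out.

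The 10467 of 23361 genes whose FPKM averaged 1 or more entered the fit of log2(FPKM + 1) by limma 3.58.1 (lmFit, eBayes with trend) in R 4.3.3, with no covariate and Benjamini-Hochberg adjustment. The pseudocount of 1 understates the fold of low genes. Single values also had the exact two-sided permutation test (scipy 1.17.1, Python 3.11.15). In each list the called genes with the 3 largest increases and decreases are named. The members and the gene lists were chosen with earlier results of these data known, so no set test was run, and p values were adjusted over all genes only.

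Depth was read from low genes, where 66.7% to 75.8% of values were within 0.1 of a whole number of fragments, against 15.5% to 30.1% with a shifted unit. Libraries of a group differed by 1.64 to 2.20 times the variance of fragment sampling, so none was counted as a duplicate. Gene places, lengths and GC content came from GENCODE M21, promoters from RefSeq. The fits were tested on simulated data. The alternatives were other pseudocounts, filters, scalings, weights and trend, the replicate number as a block, short RNA genes left out, a GC and length correction, and each library left out. The nTreg libraries were not analysed here. Some genes of the lists are counted but not reported on their own.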

Additional observations from a re-analysis of the deposited data

Results flagged for a closer look

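In 4 of 86 groups of 4 libraries tested, the highest or lowest library lay far from the other 3 by Dixon's criterion, and about 4.3 such groups are what chance gives. Among the members this was Ahr, where Nrp-1- iTreg replicate 4 held 1.11 FPKM and the other libraries of the group 0.994 to 1.01 FPKM. That library was the nearest to the Nrp-1+ iTreg group and still below it. Among the list genes, Nrp-1- iTreg replicate 1 was low for Nfkbiz, with 14.4 FPKM where the rest held 15.4 to 15.6 FPKM, and for Ctla4, with 155.6 FPKM where the rest held 161.3 to 161.7 FPKM. Nrp-1+ iTreg replicate 3 was the deepest of its group, with a relative depth of 1.21 where the rest had 0.992 to 1.01.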

How the results depend on the processing

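No result of the members changed direction under any alternative run, and Rora and Hif1a were called under none of them. With short RNA genes left out and FPKM rescaled, the median of all genes moved from -0.016 to 0.043, 2955 genes were higher and 1065 lower, and 0 members were called lower: Il17ra -0.053 (adjusted p = 0.277), Il6ra -0.050 (0.321), Il6st -0.032 (0.593) and Il21r -0.0053 (0.918). Left out without rescaling, which was added after seeing the data, Il21r was -0.067 (0.0572) and the other 3 kept their calls. With the GC and length correction 2 members were lower, Il6st being -0.088 (0.0886) and Il21r -0.085 (0.0509). With that correction and the replicate block, 1343 genes were higher and 1055 lower and 0 members were called: Il17ra -0.11 (0.123), Il6ra -0.098 (0.123), Il6st -0.088 (0.202) and Il21r -0.085 (0.161). Il21r also lost its call with a pseudocount of 0.1 (-0.068, 0.0502), size factors (-0.061, 0.0680), quantile normalization (-0.070, 0.216) and no trend (-0.067, 0.0739). Asking for a change of at least 0.1, also added later, left 2 members lower. Ahr was called higher, the 1 member so called, without the filter (0.13, 0.0295) and without trend (0.13, 0.00912), and its log2 ratio of means was 0.24 (exact permutation p = 0.0286). With single libraries left out, 2 to 4 members were lower, Il6st ranged from -0.11 to -0.075 and Il21r from -0.085 to -0.054. The cause of these changes was not tested.

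The replicate numbers did not pair the libraries: same-numbered libraries correlated at -0.54 to 0.010 in their deviations from the group means, and at -0.11 to -0.038 without short RNA genes. With the replicate number as a block, 1931 genes were higher and 1675 lower, 3 members stayed lower (adjusted p = 0.0348 for Il17ra, 0.0361 for Il6ra and 0.0425 for Il6st), and Il21r was -0.067 (0.0844). For 35 other named genes, 671 recomputed values kept their call and direction and 61 lost the call. Among the members, Il1r1, Il23r, Rora and Ahr rested on the fewest fragments, and the value of 1 fragment is an estimate.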
